A study of Mus musculus with 12 samples.

Results

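The genes of the constitutive proteasome were followed in hematopoietic progenitors and plasmacytoid dendritic cells (pDCs) that lacked the histone deacetylase HDAC3. They were taken as all gene symbols of the BM pDC table that begin with Psma, Psmb, Psmc or Psmd and end in a number, without the immunoproteasome genes Psmb8, Psmb9 and Psmb10. This gave 36 genes of the 16896 in that table, 16 of the core particle and 20 of the regulatory particle or its assembly. The LMPP table held 35 of them, without Psmb11, and the CD115- CDP table held all 36. RNA-seq profiles came from 12 libraries of sorted mouse bone marrow cells. HDAC3-deficient cells were from Hdac3 fl/fl CreERT2 mice, in which a tamoxifen-inducible Cre expressed from the Rosa26 locus, and so active in all cell types, removes the floxed part of Hdac3. Control cells were from Hdac3 fl/fl mice. Mice of both genotypes were on the C57BL/6 background and received tamoxifen for 5 days, and cells were sorted 7 days later. Lymphoid-primed multipotent progenitors (LMPPs), CD115- common dendritic cell progenitors (CD115- CDPs) and BM pDCs each had 2 HDAC3-deficient and 2 control libraries. Nothing in the labels says that libraries of a group came from separate mice, so the p-values measure only the spread between libraries, which may be technical.

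The proteasome is the protease that degrades ubiquitin-tagged proteins in the cytoplasm and nucleus. Its core particle is a barrel of stacked rings, with outer alpha rings (Psma genes) that gate the entrance and inner beta rings (Psmb genes) that carry the catalytic sites. The regulatory particle caps the barrel, with a ring of ATPases (Psmc genes) that unfold and thread substrates and non-ATPase subunits (mostly Psmd genes) that bind and remove ubiquitin, and subunits of both particles are needed in fixed proportions. In dendritic cells the proteasome also makes the peptides presented on MHC class I, and interferon replaces the constitutive catalytic subunits by those of the immunoproteasome.

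Levels were given as FPKM, fragments scaled by transcript length and by library size. The expected counts of the BM pDC libraries summed to between 1.81e+07 and 1.85e+07, while the depth of the other libraries is unknown because only FPKM was used. Hdac3 was at 16.9 and 9.87 FPKM in HDAC3-deficient LMPPs, against 56.5 and 66.35 FPKM in control LMPPs. In CD115- CDPs it was at 12.1 and 0.93 FPKM in HDAC3-deficient cells, against 58.2 and 39.6 FPKM in control cells. In BM pDCs it was at 15.6 and 15.85 FPKM in HDAC3-deficient cells, against 38.9 and 37.8 FPKM in control cells. Every HDAC3-deficient library was below both of its controls, as labelled. These values count the whole gene, and a transcript without the floxed part still adds to them. HDAC3-deficient CD115- CDP library 2 stood apart, with 11288 genes above 0 FPKM against 13684 to 15173 in the other libraries of its table. In LMPPs, HDAC3-deficient library 2 had a summed FPKM of 707128, against 596771 to 622839 in the other libraries of that table, and control library 1 held Hba-a1, a hemoglobin gene, at 3700 FPKM against 31.4 to 96.1 in those libraries. LMPPs and BM pDCs held markers of their type: Flt3 and Cd34 were at 312 to 473 and 523 to 807 FPKM in LMPPs, and Siglech and Bst2 at 855 to 1951 and 1164 to 2132 FPKM in BM pDCs. Csf1r, which encodes CD115, was at 64.7 and 21.5 FPKM in HDAC3-deficient CD115- CDPs, against 139 and 95.3 FPKM in control cells. These are bulk samples, in which fewer cells of a type and less RNA per cell cannot be told apart.

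A core gene was the most abundant member in each cell type. In LMPPs, Psma7, an alpha ring subunit, was at 464 and 653 FPKM in HDAC3-deficient cells, against 404 and 342 FPKM in control cells, the highest control level of the 35. Its control level of 373 ± 43.9 FPKM (SD, n = 2) did not differ beyond this spread from that of Psmb2, the next in order, at 366 ± 38.7 FPKM. In CD115- CDPs, Psmb2, a non-catalytic beta ring subunit, was the highest in control cells, with 465 and 615 FPKM in HDAC3-deficient cells against 445 and 570 FPKM in control cells. Its control mean, 507 ± 88.5 FPKM (SD, n = 2), did not differ beyond this spread from that of Psmb3, 494 ± 82.6 FPKM. In BM pDCs it was Psmb1, another non-catalytic beta ring subunit, at 119.7 and 116 FPKM in HDAC3-deficient cells, against 148 and 157.5 FPKM in control cells.

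The same genes stood at the low end of the order in all 3 cell types. Psma8, an alpha ring subunit known from the testis, was at 2.28 and 4.02 FPKM in HDAC3-deficient LMPPs, against 6.01 and 5.10 FPKM in control LMPPs, and at 3.45 and 6.27 FPKM against 4.38 and 3.92 FPKM in CD115- CDPs. Psmb11, the catalytic beta subunit of the thymic epithelium, was listed at 0 and 0.03 FPKM in HDAC3-deficient CD115- CDPs, against 0.02 and 0.04 FPKM in control cells, and did not pass the filter on low values there. It is a member by its symbol, not by its known role. Psmd9 and Psmd10, chaperones that assemble the regulatory particle and are not part of the finished enzyme, came next, with control means of 23.7 and 35.2 FPKM in LMPPs and 10.3 and 11.2 FPKM in BM pDCs. Across members the order of control levels was similar between cell types, with a Spearman rho of 0.92 for LMPPs and CD115- CDPs (n = 35), 0.85 for LMPPs and BM pDCs (n = 35) and 0.85 for CD115- CDPs and BM pDCs (n = 36), given as a description.

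BM pDCs had lower control FPKM than LMPPs for each of the 35 shared members. The ratio of control LMPPs to control BM pDCs was 3.08 in the median and ran from 1.42 for Psmb1 to 7.17 for Psma8. Psma8 was at only 1.03 and 0.52 FPKM in control BM pDCs, and the next highest ratio was 5.04 for Psmc1. The ratio of control CD115- CDPs to control LMPPs was 1.07 in the median. The 3 tables were normalized separately, and the progenitors were lysed in a buffer for few cells whereas BM pDCs were lysed in Trizol, so no test was made across them and cell type and lysis cannot be told apart. The plot of FPKM by library shows the offset between the tables and the spread within each.

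**Figure D1:**
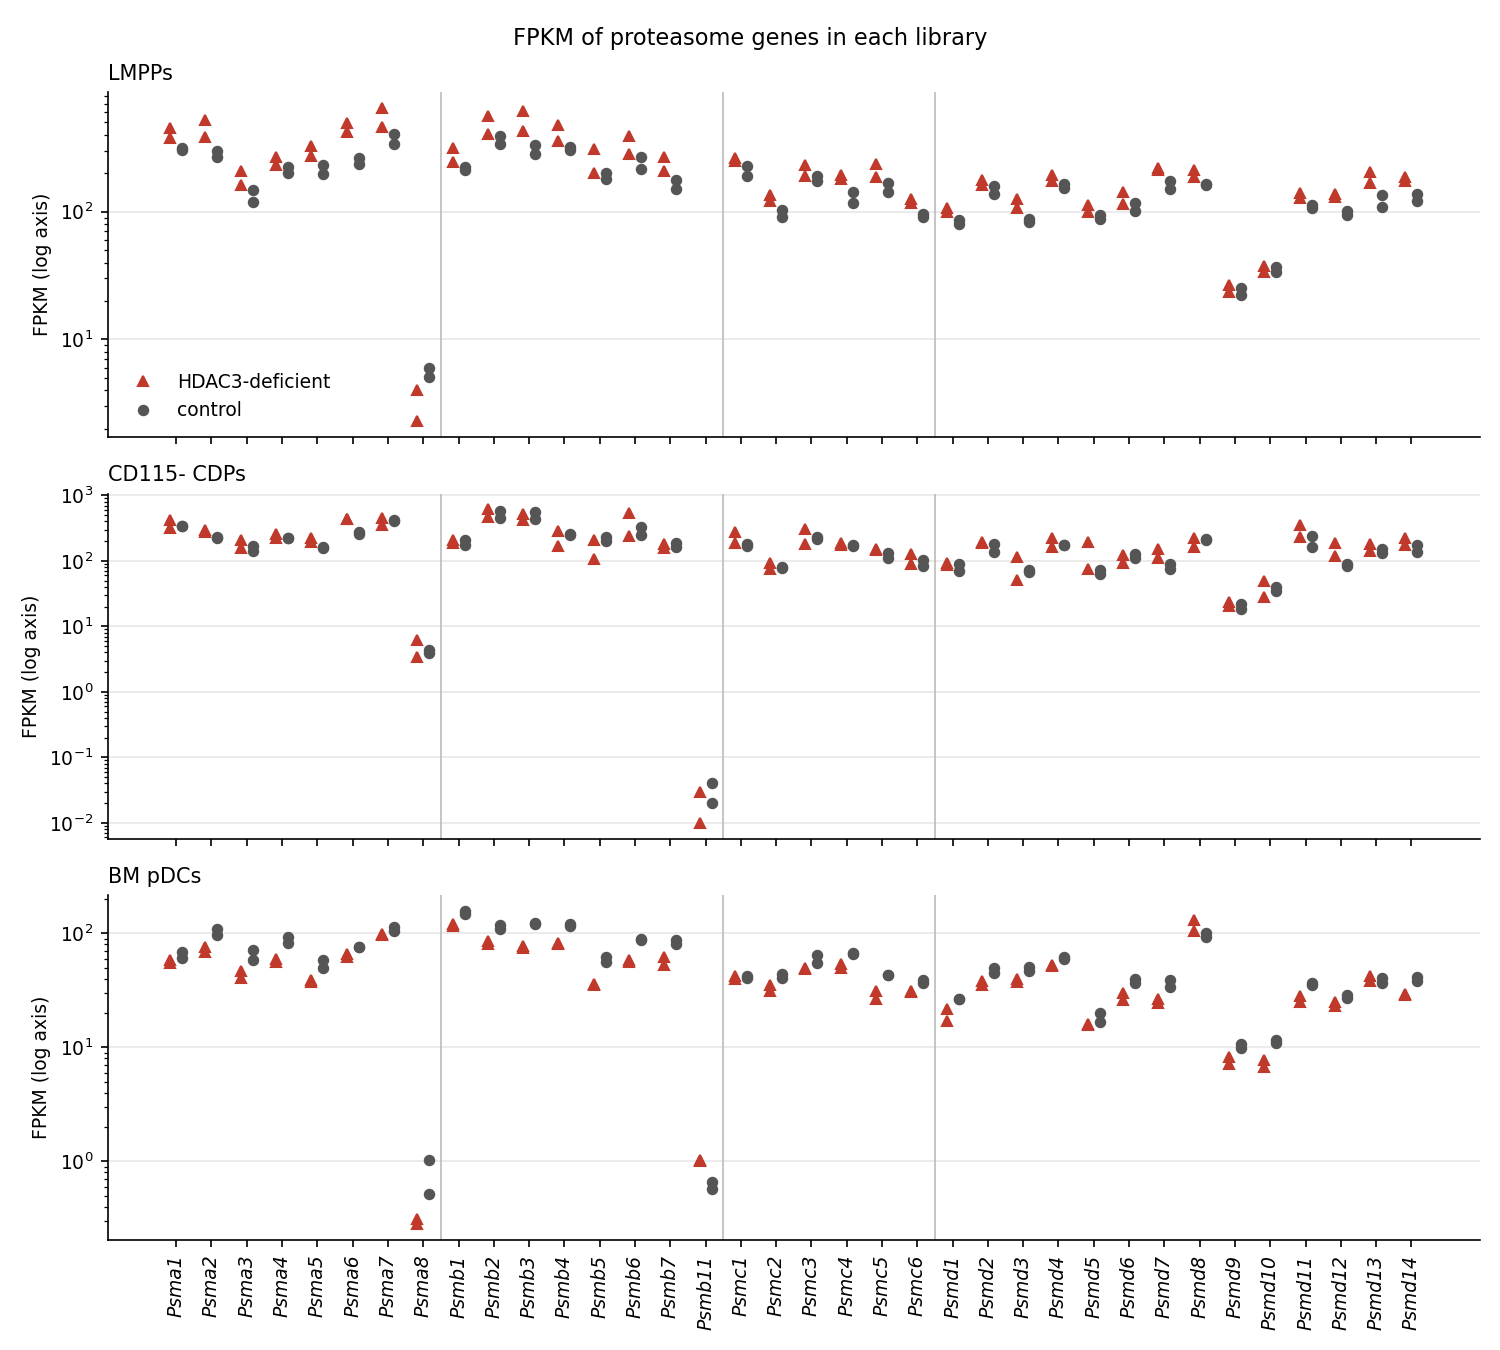
FPKM (log axis) of each proteasome gene in each library, with HDAC3-deficient libraries as red triangles and control libraries as grey circles to their right, in LMPPs, CD115- CDPs and BM pDCs. Grey lines part the alpha ring, beta ring, ATPase and non-ATPase genes, and a listed 0 is drawn at 0.01 FPKM. Triangles sit above circles for most genes in LMPPs and below them for most genes in BM pDCs, while they overlap for most in CD115- CDPs.

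Promoters of members were read from RefSeq (GRCm38.p6) because most members changed in the same direction within LMPPs and within BM pDCs. Whether the promoters have a part in this was not tested. Of the 36 members, 29 had an entry, with 31 promoters. The promoters of 5 genes are printed, each as the 150 bases before its start site: Psma2 and Psmb3, which passed the test in opposite directions in LMPPs and BM pDCs, Psmb5, which had the largest fall among members above 1 FPKM in BM pDCs, Psmd8, the abundant member that rose there, and Psmd6 for a motif common among regulatory genes. Capitals mark the motifs searched on both strands, which were TGACNNNGC (the antioxidant response core bound by NFE2L1 and NFE2L2), CCAAT (the NF-Y box) and CCGGAAG (an ETS core).
Psma2, chr13:14613092-14613241, plus strand: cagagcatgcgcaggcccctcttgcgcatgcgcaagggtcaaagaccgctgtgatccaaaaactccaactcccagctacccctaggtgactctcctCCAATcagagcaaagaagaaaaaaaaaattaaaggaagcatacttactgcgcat
Psmb3, chr11:97703284-97703433, plus strand: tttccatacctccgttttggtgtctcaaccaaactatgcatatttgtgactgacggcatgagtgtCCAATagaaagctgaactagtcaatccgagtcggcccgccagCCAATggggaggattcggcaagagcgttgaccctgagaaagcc
Psmb5, chr14:54617996-54618145, minus strand: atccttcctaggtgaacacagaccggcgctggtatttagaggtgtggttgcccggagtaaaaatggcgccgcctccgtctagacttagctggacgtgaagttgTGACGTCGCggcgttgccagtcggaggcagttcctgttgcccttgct
Psmd6, chr14:14120946-14121095, minus strand: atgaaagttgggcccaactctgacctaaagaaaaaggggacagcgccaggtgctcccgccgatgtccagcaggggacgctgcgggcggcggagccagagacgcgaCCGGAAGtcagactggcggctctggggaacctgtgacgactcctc
Psmd8, chr7:29180674-29180823, minus strand: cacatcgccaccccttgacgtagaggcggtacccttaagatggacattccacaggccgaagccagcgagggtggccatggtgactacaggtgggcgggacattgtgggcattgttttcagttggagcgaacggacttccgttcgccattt

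Over the 250 bases before each start site, CCGGAAG lay in 10 of the 31 member promoters (32.3%), against 6.91% of all 32851 promoters. It was in 9 of 18 promoters of regulatory genes and in 1 of 13 of core genes. The regulatory genes were Psmc1, Psmc2, Psmc6, Psmd2, Psmd4, Psmd6, Psmd11 and Psmd12, fewer than their promoters. A gene with more than 1 start site is counted more than once. CCAAT lay in 12 of 31 member promoters (38.7%), against 33.8% of all promoters, with 7 of 13 in core genes and 5 of 18 in regulatory genes. TGACNNNGC lay in 5 of 31 (16.1%), against 10.2% of all, at Psmb5, Psmb6, Psmc6, Psmd9 and Psmd12. A match is a description of the letters in these windows and not a bound site.

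In LMPPs the proteasome genes were higher without HDAC3. On the log2(FPKM + 0.5) scale, 34 of the 35 members had a change above 0, with a median of 0.40 (1.32-fold), while the median over all 11146 genes tested was -0.23. Both HDAC3-deficient libraries were above both controls for 30 of 35 members (17.6% of all genes), and both were below for 1 (48.2% of all genes). By limma with Benjamini-Hochberg adjustment over all genes, 6 members rose (4.31% of all genes) and 0 fell (18.8% of all genes), while 18 had p under 0.05 before adjustment with a higher level (8.37% of all genes) and 1 with a lower level (30.2% of all genes). The 34 changes above 0 stayed above 0 when libraries were scaled by their median ratio or quantile normalized, either of which moved the median of all genes to 0.03. The members' median was 0.69 with median ratio scaling and 0.26 with quantile normalization. It exceeded that of all genes by 0.66 and 0.23 with these scalings, against 0.64 as deposited, so its size depended on the scaling. Those scalings also moved the calls over all genes, which were 480 rises and 2096 falls as deposited, 952 and 918 with median ratio scaling, and 777 and 874 with quantile normalization, and the members that rose numbered 14 and 2 with the 2 scalings.

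The largest rise was in the alpha ring. Psma6 was at 418 and 497 FPKM in HDAC3-deficient LMPPs, against 265 and 238.5 FPKM in control LMPPs. Both HDAC3-deficient libraries were well clear of both controls, with a log2 change of 0.86 ± 0.18 (SE) and an adjusted p of 0.0044 by limma. Psma2 was at 384 and 519 FPKM in HDAC3-deficient LMPPs, against 298 and 269 FPKM in control LMPPs. The groups did not overlap, and its log2 change was 0.66 ± 0.19 (adjusted p = 0.025, limma). Psma2 overlaps another protein-coding gene, AW209491, on its own strand, so the counting could have split reads between them. Of the other alpha ring genes, 5 had both HDAC3-deficient libraries above both controls without passing the test, and Psma7 came closest at 0.57 ± 0.21 (adjusted p = 0.059, limma). Psma8 had the single negative change, -0.77 ± 0.29 (adjusted p = 0.067, limma).

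In the beta ring, 2 members rose. Psmb3, a structural subunit, was at 430 and 613.5 FPKM in HDAC3-deficient LMPPs, against 333 and 284 FPKM in control LMPPs. The lower HDAC3-deficient library was above the higher control, and the log2 change was 0.74 ± 0.20 (adjusted p = 0.019, limma). Of the catalytic subunits, Psmb7, which holds the trypsin-like site, was at 208 and 267 FPKM in HDAC3-deficient LMPPs, against 176 and 152 FPKM in control LMPPs. It rose by 0.53 ± 0.18 on the log2 scale (adjusted p = 0.048, limma). Its call held in 3 of 8 alternative analyses that kept all libraries, against 5 to 7 for the other members that rose. Psmb7 overlaps Nek6, a protein-coding gene, on the opposite strand. Psmb6, with the caspase-like site, was at 282.5 and 394 FPKM against 266 and 217 FPKM, and Psmb5, with the chymotrypsin-like site, at 199 and 307.5 FPKM against 202 and 179 FPKM. Neither passed the test, at 0.47 ± 0.20 for Psmb6 (adjusted p = 0.094, limma) and 0.38 ± 0.20 for Psmb5 (adjusted p = 0.18, limma), and for Psmb5 the groups overlapped, since HDAC3-deficient library 1 lay between the controls.

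Of the regulatory particle, 1 of 6 ATPases and 1 of 14 non-ATPase genes rose. Psmc4, an ATPase, was at 181 and 195 FPKM in HDAC3-deficient LMPPs, against 142.5 and 117 FPKM in control LMPPs. Its log2 change was 0.54 ± 0.17 (adjusted p = 0.033, limma), and all 6 ATPases had both HDAC3-deficient libraries above both controls. Psmc5 was at 186 and 235 FPKM in HDAC3-deficient LMPPs, against 168 and 142 FPKM in control LMPPs (0.44 ± 0.18, adjusted p = 0.084, limma), and Psmc2 at 122 and 136 FPKM against 102 and 90.7 FPKM (0.42 ± 0.16, adjusted p = 0.075, limma). The smallest ATPase change was that of Psmc3, at 191 and 232 FPKM against 189.6 and 174 FPKM, where the closest libraries of the groups nearly touched. Psmd13, a lid subunit, was at 169 and 206 FPKM against 134 and 108 FPKM, a log2 change of 0.62 ± 0.18 (adjusted p = 0.021, limma). It overlaps Sirt3 on the opposite strand, and a strand setting of the counting is not given in the sources used here. Psmd14, the deubiquitinase of the lid, and its partner Psmd7 were at 173 and 185 FPKM and at 213 and 221 FPKM in HDAC3-deficient LMPPs, against 138 and 122 FPKM and 174 and 151 FPKM in control LMPPs. Their groups did not overlap, but the adjusted p values were 0.053 and 0.077 (limma). The chaperones Psmd9 and Psmd10, named here after their values were seen, had the smallest changes of the 35, at 0.07 ± 0.18 and 0.01 ± 0.17, and their groups overlapped. Psmd9 was at 23.35 and 26.4 FPKM in HDAC3-deficient LMPPs, against 22.3 and 25.2 FPKM in control LMPPs. Psmd10 was at 33.45 and 37.6 FPKM, against 33.8 and 36.6 FPKM. The scaffolds Psmd1 and Psmd2, and the ubiquitin receptor Psmd4, had both HDAC3-deficient libraries above both controls, with log2 changes of 0.31, 0.20 and 0.21 that did not pass the test.

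Which members passed the test in LMPPs depended on single libraries, with 21 rising without HDAC3-deficient library 1 (8.73% of all genes), 5 rising (4.10%) and 1 falling (16.1%) without HDAC3-deficient library 2, 2 rising without control library 1 (2.41%) and 0 rising without control library 2 (1.35%). Markers of other cells moved in these libraries too: of the 5 neutrophil and granule markers, S100a8, S100a9 and Ltf fell and Mpo rose, with summed levels of 2659 and 2864 FPKM in HDAC3-deficient LMPPs and 1691 and 1839 FPKM in control LMPPs, while the 4 proliferation markers had no call, at 663 and 646 FPKM against 545 and 519 FPKM. Of the 4 LMPP markers Kit fell, with summed levels of 1077 and 1019 FPKM in HDAC3-deficient LMPPs and 1427 and 1540 FPKM in control LMPPs. Of the 6 pDC markers 4 fell, while the list summed to 368 and 360 FPKM against 351 and 358 FPKM. Irf8 of that list rose, at 165 and 136 FPKM against 81.5 and 109 FPKM. Both megakaryocyte markers fell, with sums of 4.97 and 3.25 FPKM against 12.6 and 33.6 FPKM. Cd68 rose among the 3 macrophage markers, at 179 and 156 FPKM against 60.7 and 58.2 FPKM. Nkg7 rose among the 2 T and NK markers, at 366 and 451 FPKM against 221 and 222 FPKM. Cd79a fell among the B cell markers at a low level, 0.26 and 0.21 FPKM against 2.27 and 1.49 FPKM. Hbb-bs fell among the erythroid markers, at 17.4 and 52.4 FPKM against 2692 and 40.4 FPKM. For Hbb-bs the groups overlapped, and only control library 1 was high. The part of these markers in the proteasome changes was not tested.

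In CD115- CDPs no member passed the test. Changes above 0 were found for 27 of 35 members tested, with a median of 0.15 on the log2(FPKM + 0.5) scale (1.11-fold) against -0.16 over all 10832 genes. Limma called 0 members and 0 genes in all (0%), and before adjustment p was under 0.05 for 2 members with a higher level (3.06% of all genes) and 0 with a lower one (5.95% of all genes). Both HDAC3-deficient libraries were above both controls for 9 members (15.2% of all genes) and below for 0 (28.4% of all genes). Markers moved here too, without a call. The 6 pDC markers summed to 1195 and 621 FPKM in HDAC3-deficient cells, against 3028.5 and 2323 FPKM in control cells. The 4 cDC markers summed to 10.7 and 15.8 FPKM against 48.4 and 41.05 FPKM. The 5 neutrophil and granule markers, mostly Mpo, summed to 2116 and 1640 FPKM against 1043 and 929 FPKM. The 4 proliferation markers overlapped, at 621 and 704 FPKM against 678 and 755.5 FPKM. Their part in the member changes was not tested.

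The alpha subunit Psma6 had the smallest unadjusted p among members, 0.027. It was at 438.5 and 430 FPKM in HDAC3-deficient CD115- CDPs, against 273.5 and 259 FPKM in control cells, a log2 change of 0.70 ± 0.24 (adjusted p = 0.51, limma). The largest positive change was in Psmd5, an assembly chaperone, at 74.0 and 193 FPKM in HDAC3-deficient cells, against 63.7 and 71.5 FPKM in control cells. Nearly all of it lay in HDAC3-deficient library 2, and the change was 0.82 ± 0.48. Psmd12, a lid subunit, was at 118 and 187 FPKM against 82.35 and 90.8 FPKM, and Psmd7 at 109.7 and 153 FPKM against 74.65 and 91.3 FPKM, both without overlap and with adjusted p values of 0.55 and 0.56 (limma). Psma2 was at 275 and 301 FPKM against 222 and 235 FPKM, Psma5 at 195 and 226.5 FPKM against 159 and 161 FPKM, Psmc5 at 149 and 154 FPKM against 109.8 and 134 FPKM, and Psmd2 at 185 and 192 FPKM against 135 and 183 FPKM. In these 4 genes too, each HDAC3-deficient library was above both controls.

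Of the catalytic subunits, Psmb5 and Psmb6 differed widely between the HDAC3-deficient libraries. Psmb6 was at 241 and 539 FPKM in HDAC3-deficient CD115- CDPs, against 252 and 325.5 FPKM in control cells. Psmb5 was at 209 and 108 FPKM, against 229 and 202 FPKM, and had the largest negative change, -0.52 ± 0.37 (adjusted p = 0.67, limma). Psmb7 was at 180.3 and 159.6 FPKM, against 166 and 185 FPKM. For each of the 3 genes the groups overlapped. Between the 2 HDAC3-deficient libraries members differed by a median of 0.41 on the log2 scale, against 0.16 between the controls. With HDAC3-deficient library 1 left out, 8 members rose (15.2% of all genes) and 2 fell (32.6% of all genes). With library 2 left out, the one with few genes detected, 2 rose (5.66% of all genes), which is near that background. Each of those fits rests on a lone HDAC3-deficient library that is assumed to vary like the controls.

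In BM pDCs the proteasome genes were lower without HDAC3. EdgeR's quasi-likelihood test on the expected counts, adjusted over 12716 genes, found that 17 of 36 members fell (22.5% of all genes) and 2 rose (21.6% of all genes). The log2 change was below 0 for 32 of 36, with a median of -0.29 (0.820-fold) against -0.01 over all genes. By FPKM both HDAC3-deficient libraries were below both controls for 32 members (48.9% of all genes) and above for 2 (27.2% of all genes). With limma on log2(FPKM + 0.5), which moved the median of all genes to -0.15, 27 of 35 members fell and 0 rose, and the calls over all genes were 1881 rises and 3696 falls, against 2753 and 2858 with edgeR.

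In the beta ring 6 of 8 genes fell. Psmb5 was at 35.4 and 36.2 FPKM in HDAC3-deficient BM pDCs, against 56.5 and 61.6 FPKM in control BM pDCs, a log2 change of -0.59 ± 0.09 (adjusted p = 0.0025, edgeR). Psmb6 was at 58.7 and 56.5 FPKM, against 87.8 and 88.4 FPKM (-0.48 ± 0.08, adjusted p = 0.0031). Psmb7 was at 61.4 and 52.8 FPKM, against 79.97 and 87.25 FPKM (-0.42 ± 0.09, adjusted p = 0.0083). All 3 constitutive catalytic subunits fell, with no overlap between the groups. Psmb5, Psmb6 and Psmb7 have pseudogenes named after them, which could share reads with them. Of the structural beta subunits, Psmb3 was at 77.8 and 73.9 FPKM in HDAC3-deficient cells, against 121.8 and 124 FPKM in control cells, and Psmb4 at 80.2 and 81.4 FPKM against 115.0 and 121 FPKM. Their log2 changes were -0.56 ± 0.08 (adjusted p = 0.0016, edgeR) and -0.41 ± 0.09 (adjusted p = 0.0076, edgeR). Psmb2 was at 80.2 and 84.96 FPKM against 109.6 and 118 FPKM and fell by 0.33 on the log2 scale, whereas Psmb1, at -0.24 ± 0.08, had an adjusted p of 0.053 (edgeR). Psmb3, Psmb5 and Psmb6 were called in all 9 alternative analyses.

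Psmb11 moved against its ring at a low level. It was at 1.03 and 1 FPKM in HDAC3-deficient BM pDCs, against 0.66 and 0.57 FPKM in control BM pDCs. These rest on expected counts of 80.7 and 79.2, against 52.2 and 44.15, which are not whole numbers, as estimates can be where reads map to more than 1 gene. Psma3, Psma4 and Psmd11, which fell, also had counts that were not whole, at 1222.31, 1194.76 and 1163.28 in HDAC3-deficient library 1. For Psmb11 the groups did not overlap and the log2 change was 0.86 ± 0.22 (adjusted p = 0.018, edgeR). Psmb11 lies 7315 bases from Psmb5 on chromosome 14, and its call was lost with DESeq2, with limma and without either control library.

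In the alpha ring 4 of 8 genes fell. Psma4 was at 58.99 and 56.5 FPKM in HDAC3-deficient BM pDCs, against 81.9 and 93.45 FPKM in control BM pDCs (-0.48 ± 0.09, adjusted p = 0.0059, edgeR). Psma3 was at 46.4 and 40.8 FPKM, against 58.8 and 71.7 FPKM (-0.46 ± 0.11, adjusted p = 0.013, edgeR). Psma2 was at 75.2 and 68.6 FPKM, against 96.9 and 109.5 FPKM (-0.39 ± 0.09, adjusted p = 0.014, edgeR). Psma5 fell as well, by 0.37 on the log2 scale. Psma1, Psma6 and Psma7, at -0.03, -0.11 and -0.0041, did not pass the test, although their FPKM did not overlap between the groups. Psma8 was at 0.28 and 0.31 FPKM against 1.03 and 0.52 FPKM, a log2 change of -1.36 ± 0.48 (adjusted p = 0.056, edgeR). It rests on expected counts of 8 and 9, against 32 and 16, whereas Psma7, the most abundant alpha gene, had 1736 and 1747 against 1833 and 1967.

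In the regulatory particle 1 of 6 ATPases and 6 of 14 non-ATPase genes fell. The ATPase Psmc5 was at 31.15 and 26.7 FPKM in HDAC3-deficient BM pDCs, against 42.8 and 43.1 FPKM in control BM pDCs (-0.44 ± 0.09, adjusted p = 0.0082, edgeR). Of the other ATPases, Psmc4, which rose in LMPPs, was at 50.05 and 53.8 FPKM, against 66.5 and 67.8 FPKM (-0.24 ± 0.09, adjusted p = 0.076, edgeR). Psmc1, at 42.3 and 39.5 FPKM against 40.7 and 42.6 FPKM, had overlapping groups and the single ATPase change above 0, 0.11 ± 0.08. The chaperone Psmd10, on the X chromosome, was at 7.79 and 6.78 FPKM, against 10.8 and 11.6 FPKM (-0.49 ± 0.12, adjusted p = 0.014, edgeR), and Psmd7 was at 26.4 and 24.6 FPKM, against 34.1 and 38.7 FPKM (-0.38 ± 0.09, adjusted p = 0.016, edgeR). In all 3 genes the groups were apart. Psmd14, Psmd1, Psmd6 and Psmd11 fell by 0.33, 0.34, 0.32 and 0.29 on the log2 scale. Psmd1 and its relative Psmd2 are the scaffolds of the base, and Psmd2, at -0.23 ± 0.09, did not pass the test (adjusted p = 0.076, edgeR). The ubiquitin receptor Psmd4 was at 51.8 and 52.3 FPKM, against 59.4 and 61.8 FPKM, and Psmd13, which rose in LMPPs, at 42.0 and 38.3 FPKM against 36.9 and 40.4 FPKM. Neither passed the test, and for Psmd13 the groups overlapped with a change of 0.19 ± 0.09.

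Psmd8, a lid subunit named here after its values were seen, was the abundant exception. It was at 104.7 and 130 FPKM in HDAC3-deficient BM pDCs, against 93.0 and 101 FPKM in control BM pDCs. The groups did not overlap, though the 2 HDAC3-deficient libraries were further apart than the gap between the groups. It rose by 0.42 ± 0.13 on the log2 scale (adjusted p = 0.038, edgeR), and lost the call without filtering, with limma and in 3 of 4 fits that left out a library. With it, Psmd8 moved to the second highest member in HDAC3-deficient BM pDCs by mean FPKM, and it was the seventh in control BM pDCs.

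The count of falls rested on the controls: 8 members fell (10.7% of all genes) and 0 rose (11.7%) without control library 1, and 3 fell (10.04%) and 0 rose (11.0%) without control library 2, where the members' falls were near the background. In the same BM pDC libraries the 4 proliferation markers all rose. Their summed levels were 503 and 476 FPKM in HDAC3-deficient cells and 246 and 245 FPKM in control cells. Of the 4 cDC markers 3 rose, with list sums of 222 and 216 FPKM against 48.7 and 53.6 FPKM. Of the 6 pDC markers 4 fell, with list sums of 4528 and 4318 FPKM against 7933 and 8137 FPKM. Of the 4 LMPP markers, which summed to 433 and 464 FPKM against 373 and 409 FPKM, Cd34 and Kit rose. Cd34 was at 4.05 and 4.85 FPKM against 1.81 and 1.67 FPKM, and Kit at 8.52 and 9.77 FPKM against 1.77 and 1.54 FPKM. Of the other lists, Csf1r, Klf1, Nkg7 and Itga2b rose, Il7r, Cd79b and Adgre1 fell, and the 5 neutrophil and granule markers had no call. Their part in the proteasome changes was not tested.

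**Figure D2:**
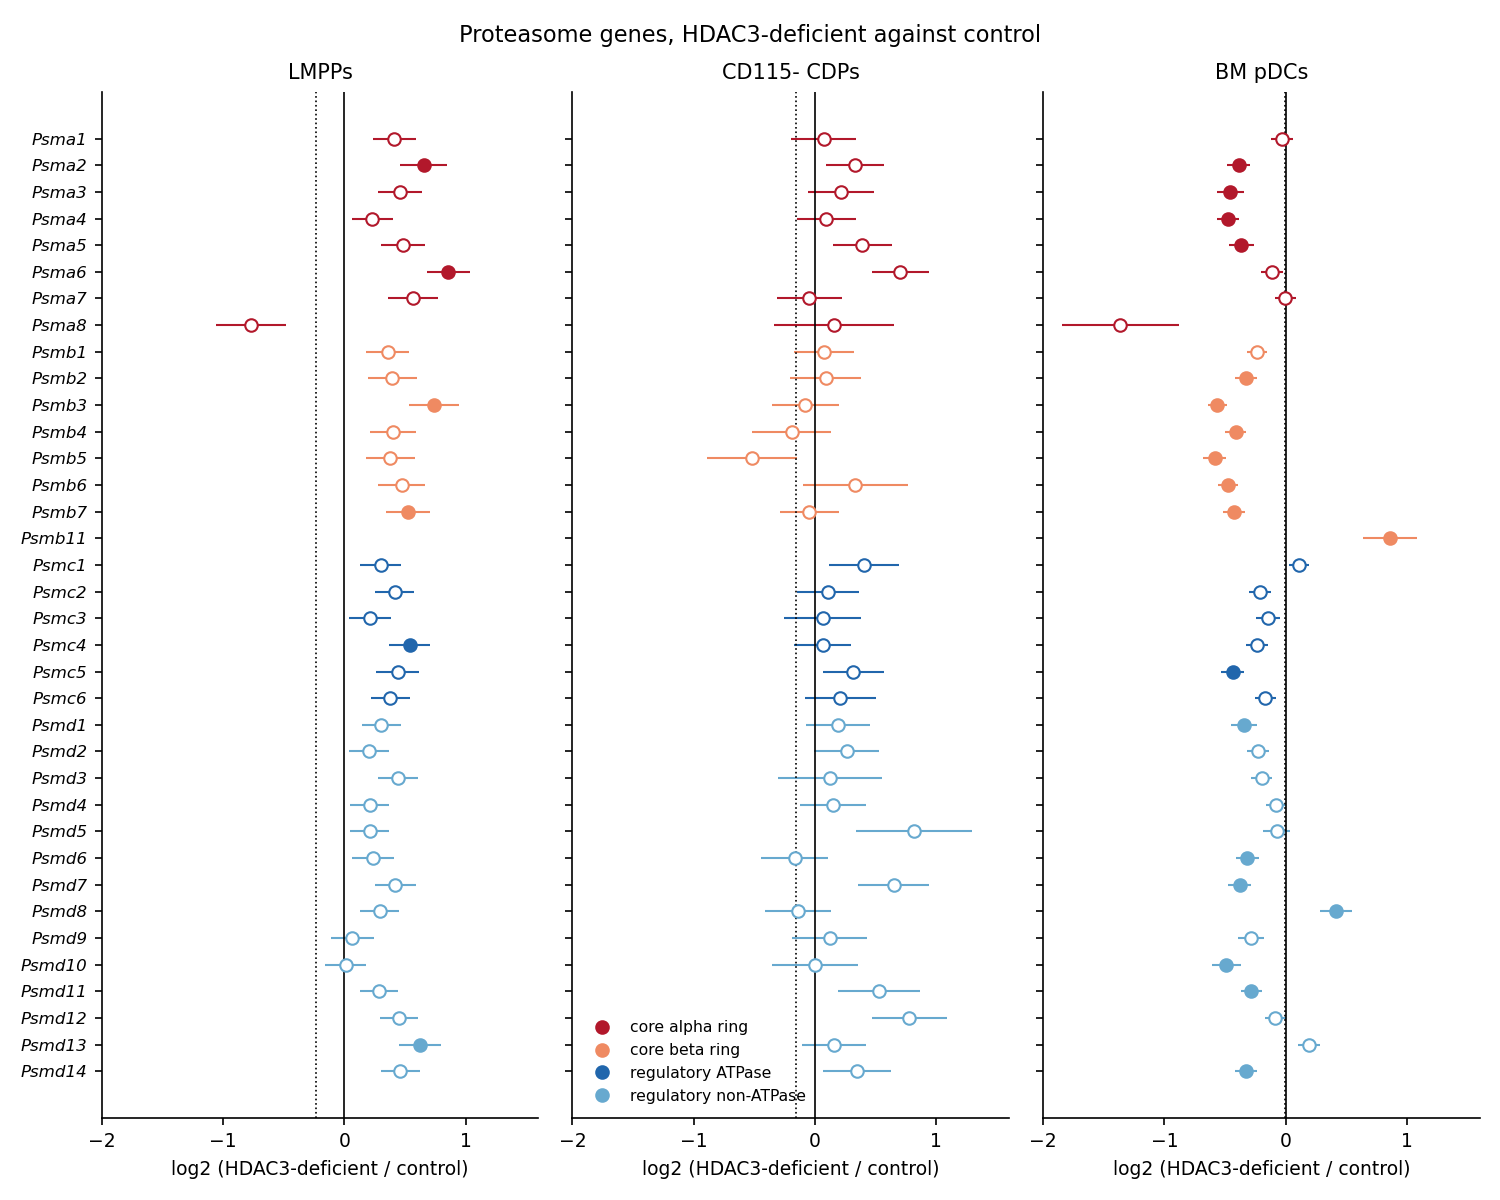
Log2 change of each proteasome gene, HDAC3-deficient over control, in LMPPs and CD115- CDPs (limma on log2(FPKM + 0.5)) and in BM pDCs (edgeR on expected counts), with bars of 1 SE. Filled points passed an adjusted p under 0.05, colours give the ring or particle, and the dotted line is the median of all genes tested, at -0.23, -0.16 and -0.01. Filled points are at positive changes in LMPPs, absent in CD115- CDPs and at negative changes in BM pDCs, apart from Psmb11 and Psmd8.

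The direction of most members was opposite in LMPPs and BM pDCs. By FPKM, both HDAC3-deficient libraries were above both controls in LMPPs and below both in BM pDCs for 27 of 35 members (77.1%), a pattern of 7.46% of the 10039 genes tested in both. The reverse pattern was found for 0 members (10.5% of all genes). The pattern held for 13 of 15 core and 14 of 20 regulatory genes. Psma2, Psmb3 and Psmb7 both rose in LMPPs and fell in BM pDCs by the tests (0.468% of all genes). The LMPP call of Psmb7 held in 3 of 8 alternative analyses that kept all libraries. On the shared log2(FPKM + 0.5) scale, the changes were furthest apart for Psmb3, at 0.74 in LMPPs and -0.69 in BM pDCs, and closest for Psmd5, at 0.21 and -0.18, among the 27 members with this pattern. The difference between cell types was not tested, because each has its own table, and no gene was normalized across them. In LMPPs and CD115- CDPs alike, 9 members were above both controls (6.41% of all genes), and 8 members were above both controls in CD115- CDPs and below both in BM pDCs (6.46% of all genes). The size of a member's rise in LMPPs said little of its fall in BM pDCs, with a Pearson r of -0.04 over 34 members on the shared scale, given as a description.

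**Figure D3:**
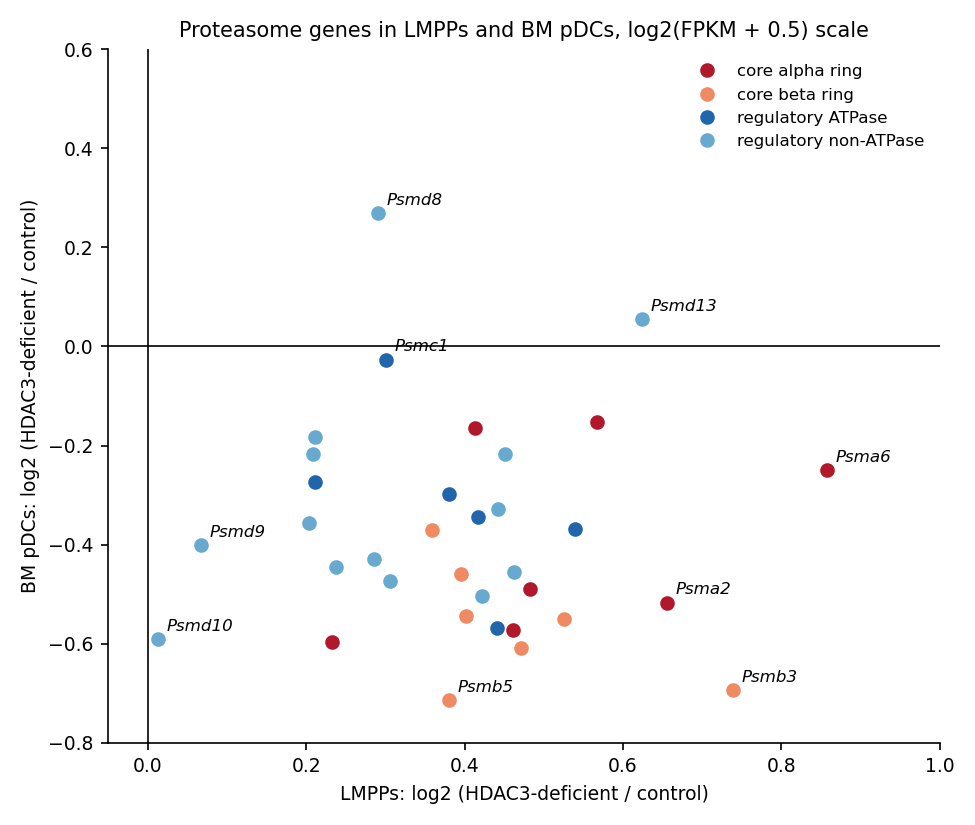
Log2 change of 34 proteasome genes, HDAC3-deficient over control, in LMPPs (horizontal axis) against BM pDCs (vertical axis), both on the log2(FPKM + 0.5) scale, with colours for the ring or particle. Of these, 32 lie at a positive change in LMPPs and a negative one in BM pDCs, and Psmd8 and Psmd13 lie above 0 in both. Psma8 and Psmb11 are left out, since they were not tested on this scale in BM pDCs or LMPPs.

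The median change of core and regulatory genes had the same sign in each cell type, and that of the core lay further from 0 in LMPPs and BM pDCs, without a test. In LMPPs the median log2 change was 0.46 for core and 0.30 for regulatory genes, with 4 of 15 and 2 of 20 rising. The difference of 0.16 turned to -0.01 without HDAC3-deficient library 2, fell to 0.08 without the chaperones Psmd5, Psmd9 and Psmd10, and with quantile normalization the medians were 0.257 and 0.260. In CD115- CDPs the medians were 0.09 and 0.17. In BM pDCs they were -0.40 and -0.22, with 10 of 16 core genes and 7 of 20 regulatory genes falling, and the difference of -0.18 ran from -0.22 to -0.12 with a library left out.

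Sums within a library were read as well. The summed FPKM of core genes over that of regulatory genes was 1.35 and 1.32 in HDAC3-deficient BM pDCs, against 1.55 and 1.58 in control BM pDCs. It was 1.53 and 1.85 in HDAC3-deficient LMPPs, against 1.52 and 1.48 in control LMPPs. In CD115- CDPs it was 1.55 and 1.34 in HDAC3-deficient cells, against 1.64 and 1.54 in control cells, with overlapping groups. In BM pDCs the groups were apart by more than the spread within them, while in LMPPs only HDAC3-deficient library 2 stood out. An exact two-sided permutation test of 2 against 2 libraries cannot go below p = 0.333, so none is given. All members together held 1.19% and 1.28% of the summed FPKM in HDAC3-deficient LMPPs, against 1.01% and 0.943% in control LMPPs. They held 1.18% and 1.42% in HDAC3-deficient CD115- CDPs, against 1.06% and 1.22% in control cells, and 0.355% and 0.331% in HDAC3-deficient BM pDCs, against 0.432% and 0.457% in control BM pDCs. The share, which cancels a uniform scaling of a library but moves with the other genes in its sum, was apart between the groups in LMPPs and BM pDCs and overlapped in CD115- CDPs.

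**Figure D4:**
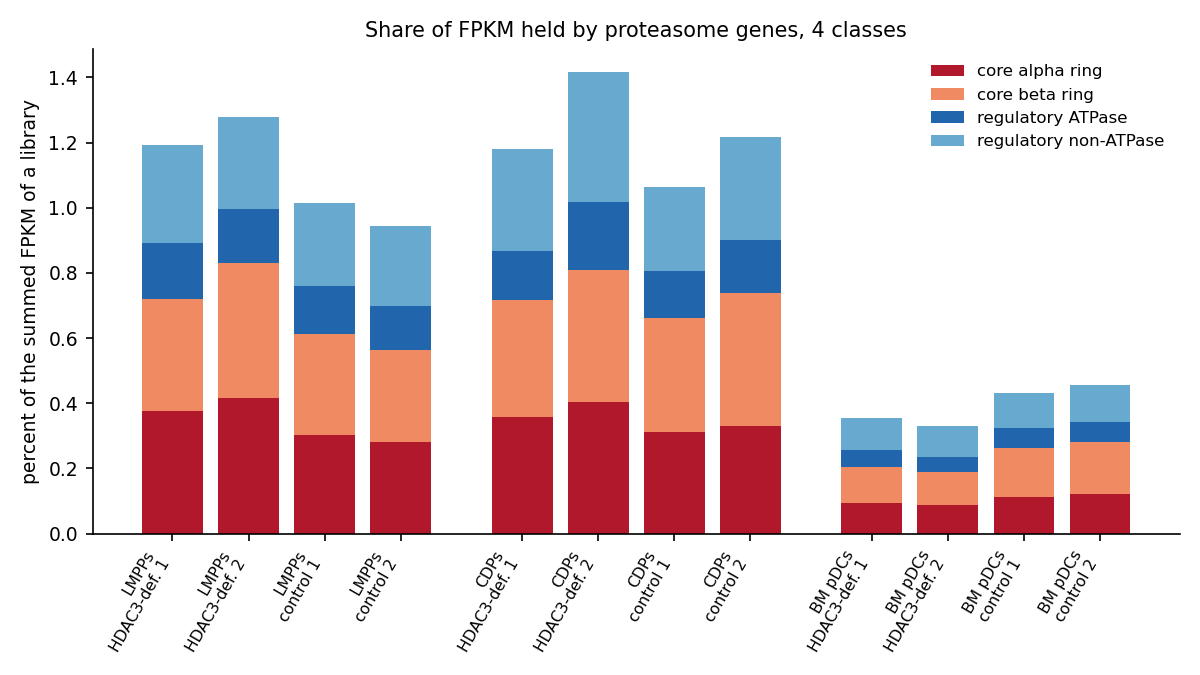
Percent of the summed FPKM of each library held by proteasome genes, stacked by class from the alpha ring (bottom) to the non-ATPase genes (top), with the 2 HDAC3-deficient libraries left of the 2 control libraries in each cell type (CDPs are CD115- CDPs). Bars start at 0, and the whole bar is 1.19% and 1.28% in HDAC3-deficient LMPPs against 1.01% and 0.943% in control LMPPs, and 0.355% and 0.331% in HDAC3-deficient BM pDCs against 0.432% and 0.457% in control BM pDCs.

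Other genes of the pathway, a list of 36, were read in the same fits. In LMPPs 4 rose (4.31% of all genes) and 2 fell (18.8% of all genes). The risers act on or in the particle: Usp14, a deubiquitinase of the base, was at 62.1 and 53.05 FPKM in HDAC3-deficient LMPPs, against 34.3 and 34.4 FPKM in control LMPPs. Uchl5, a second deubiquitinase, was at 144.0 and 146 FPKM against 98.2 and 87.25 FPKM, and Adrm1, the ubiquitin receptor that recruits Uchl5, at 143 and 158 FPKM against 106 and 93.35 FPKM. Psmg1, a chaperone of alpha ring assembly, rose by 0.59 on the log2 scale. The 2 that fell were the deglycosylase Ngly1, which takes part in the activation of NFE2L1, and Zfand5, a zinc finger protein that binds the proteasome, with log2 changes of -0.76 and -1.74. In CD115- CDPs 0 of 36 passed the test.

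In BM pDCs 5 of the 36 rose (21.6% of all genes) and 10 fell (22.5% of all genes), counts that do not set the list apart from all genes. Among those that fell was Pomp, the maturation factor of the beta ring, at 102 and 101 FPKM in HDAC3-deficient BM pDCs, against 152 and 172 FPKM in control BM pDCs. Sem1, a small subunit of the lid, fell as well, at 87.1 and 91.6 FPKM against 142 and 150.8 FPKM. The activator genes Psme1, Psme2 and Psme4 fell by 0.33, 0.69 and 0.62 on the log2 scale, and the chaperone Psmg4 by 0.50. The immunoproteasome did not move as one, since Psmb10 was at 47.2 and 43.2 FPKM in HDAC3-deficient cells against 81.8 and 90.04 FPKM in control cells, Psmb9 rose by 0.35, and Psmb8 did not pass the test. The bounce-back response, in which NFE2L1 is cut by the protease DDI2 and turns on proteasome genes when the proteasome is short, was split as well. Nfe2l1 was at 18.5 and 15.05 FPKM in HDAC3-deficient BM pDCs, against 24.9 and 23.3 FPKM in control BM pDCs, and fell together with Vcp. Nfe2l2 was at 28.97 and 30.2 FPKM against 22.3 and 23.1 FPKM and Ddi2 at 50.3 and 49.1 FPKM against 36.6 and 30.85 FPKM, and both rose. Ubqln2, a ubiquitin receptor, fell by 0.33 on the log2 scale, whereas Zfand5 and Zfand2a, zinc finger proteins that bind the proteasome, rose by 0.65 and 0.59. Over the whole list the median log2 change was 0.11 in LMPPs and -0.09 in BM pDCs, against 0.40 and -0.29 for the members.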

How the data were processed

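Sorted LMPPs, CD115- CDPs and BM pDCs were profiled by RNA-seq, with 2 libraries per genotype and cell type grouped by the submitters' labels. The progenitor tables deposited by the authors hold FPKM per gene. Their BM pDC table, as deposited, holds an expected count, FPKM and TPM per gene, of which TPM was not used. Bowtie2, RSEM and mm10 are named in the processing notes of the submitters, with roles and versions not given in the sources used here. FPKM was tested as log2(FPKM + 0.5) with limma 3.58.1 (trended eBayes, R 4.3.3) over genes that reached 1 FPKM in 2 or more of the 4 libraries. This understates the change of low genes. Expected counts were rounded and tested with edgeR 4.0.16 (filterByExpr, TMM, quasi-likelihood). P-values were adjusted by Benjamini-Hochberg over all genes tested in a cell type, with calls made below 0.05. Each table was fitted on its own.

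The main limma and edgeR fits and DESeq2 were run on simulated data with planted changes larger than those of most members. That run does not show how the fits perform on changes as small as the members had. The other settings were not simulated. Alternatives were other pseudocounts, filters, scalings, DESeq2 1.42.0, a replicate block and each library left out. Genes were named by a rule: up to 12 calls with the smallest p per cell type, the catalytic subunits, the highest, lowest and most changed members, untested members, and members with opposite patterns in 2 cell types. Members, lists and rule were chosen with earlier results of these data known. Some genes of the pathway list are not reported here. Of the 36 members, 8 overlap another protein-coding gene (RefSeq).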

Additional observations from a re-analysis of the deposited data

Results flagged for a closer look

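In 27 of the 35 members tested in both cell types, every HDAC3-deficient library was above its controls by FPKM in LMPPs and every one was below them in BM pDCs. By FPKM, 48.9% of all genes were below both controls in BM pDCs. In the edgeR fit on expected counts, Psma1 and Psma7 hardly changed in BM pDCs, at -0.03 and -0.0041 (adjusted p = 0.79 and 0.97, edgeR). The change in LMPPs minus that in BM pDCs, on the log2(FPKM + 0.5) scale, is given for each, and this difference was not tested. It had a median of 0.83. Among the alpha ring genes, this difference was 0.58 for Psma1, 1.17 for Psma2, 1.03 for Psma3, 0.83 for Psma4, 0.97 for Psma5, 1.11 for Psma6 and 0.72 for Psma7. Among the beta ring genes, this difference was 0.73 for Psmb1, 0.85 for Psmb2, 1.43 for Psmb3, 0.95 for Psmb4, 1.08 for Psmb6 and 1.07 for Psmb7. Among the ATPase genes, this difference was 0.76 for Psmc2, 0.49 for Psmc3, 0.91 for Psmc4, 1.01 for Psmc5 and 0.68 for Psmc6. Among the non-ATPase genes, this difference was 0.78 for Psmd1, 0.56 for Psmd2, 0.77 for Psmd3, 0.42 for Psmd4, 0.39 for Psmd5, 0.92 for Psmd7, 0.72 for Psmd11, 0.67 for Psmd12 and 0.92 for Psmd14.

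The same held in 8 members between CD115- CDPs, where none passed the test, and BM pDCs. The change in CD115- CDPs minus that in BM pDCs was 0.85 for Psma2, 0.88 for Psma5, 0.95 for Psma6, 0.88 for Psmc5, 0.62 for Psmd2, 1.001 for Psmd5, 1.15 for Psmd7 and 0.99 for Psmd12, and was not tested either. For Psmd5 most of it lay in HDAC3-deficient CD115- CDP library 2, at 193 FPKM against 74.0 FPKM in library 1.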

How the results depend on the processing

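In LMPPs, 6 members were called, 0 without a filter on low values, 14 with median ratio scaling, 2 with quantile normalization, 1 without a trend, 5 with the replicate block and 0 to 21 with a library left out, where the fits rest on a lone library in 1 arm that is assumed to vary like the other. Over all genes, 23.1% were called in LMPPs, 3.06% without a filter on low values, 16.8% with median ratio scaling and 14.8% with quantile normalization. That share was 19.0% without a trend and 22.9% with the replicate block, and it moved with a library left out too. With a library left out, the log2 changes of Psmd10 and Psmd9 ran from -0.071 to 0.096 and from -0.021 to 0.16. Both turned in sign. In CD115- CDPs, 0 to 10 members were called with a library left out and 0 with the replicate block, although the block gave 393 calls over all genes. The change of Psmb7 turned from -0.05 to 0.077 with median ratio scaling and ran from -0.14 to 0.040 with a library left out, that of Psmb2 turned from 0.087 to -0.019 with quantile normalization and ran from -0.11 to 0.29, and that of Psmb6 ran from -0.25 to 0.91. In CD115- CDPs the share of all genes called was 0% in the main fit and 3.63% with the block. It also moved with the library left out. The core minus regulatory difference there ran from -0.23 to -0.022. In BM pDCs, 19 members were called, 14 with DESeq2, 17 with the replicate block and 3 to 23 with a library left out. Over all genes, 44.1% were called in BM pDCs, 26.4% with DESeq2 and 39.8% with the replicate block. That share moved with the library left out as well. The change of Psma7, -0.0041, became 0.0100 with DESeq2's size factors and 0.00088 with DESeq2. It ran from -0.062 to 0.048 with a library left out. In the same fits the changes of Psma1 and Psmd5 ran from -0.12 to 0.044 and from -0.20 to 0.056. The core minus regulatory difference of -0.18 was -0.14 without the ATPases and -0.19 without the 3 chaperones, and ran from -0.22 to -0.12. The labels do not say whether library numbers pair the samples. The correlation of deviations by library number was -0.10 in LMPPs, 0.24 in CD115- CDPs and -0.23 in BM pDCs, which does not settle it. The cause of these shifts was not tested. Depth limits Psma8 and Psmb11, at about 1 FPKM or less in BM pDCs.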

Other observations

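Within LMPPs, members with a higher control level had a larger log2 change, with a Pearson r of 0.57 and a Spearman rho of 0.40 over 34 members without Psma8. In BM pDCs the same r was -0.03 and in CD115- CDPs -0.23, again without Psma8 and Psmb11. The members of a cell type share their libraries, so these are descriptions.

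The HDAC3-deficient LMPP libraries differed among themselves, with members higher in library 2 than in library 1 by a median of 0.25 on the log2 scale, while the control libraries differed by -0.17. In BM pDCs the same differences were -0.07 and 0.10.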
